A study of Drosophila melanogaster with 3 samples.

Results

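The genes described here are 10 genes that pattern the dorsoventral axis of the fly embryo or carry the Dpp signal: twi, sna, sog, rho, brk, zen, ush, dpp, tld and tkv. They were taken by name, with earlier results of these data known, out of 13945 protein-coding genes on the 6 main chromosome arms. Each is read together with 10 kb of sequence on either side. The measurement was chromatin immunoprecipitation with sequencing (ChIP-seq) of the CG12155 protein, carried out on entire Drosophila melanogaster embryos, male and female together, collected from 0 to 24 hours of age. All samples came from 1 group, a stable transgenic line in which GFP is joined to the C-terminus of CG12155, immunoprecipitated with an antibody against GFP, in 3 biological replicates. The labels name neither a promoter for the transgene nor the number of embryos. No control immunoprecipitation was analysed here, so values are compared between regions and genes of these embryos only, and no test between conditions was possible.

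In the early embryo a nuclear gradient of Dorsal, released by Toll signalling on the ventral side, divides the axis into bands of gene expression. Twist and Snail set up the ventral mesoderm, Sog, Rhomboid and Brinker mark the neurogenic ectoderm beside it, and Dpp, a bone morphogenetic protein (BMP), acts with Zen and U-shaped on the dorsal side. Many of these genes are controlled by enhancers that lie in introns or in flanking sequence, away from their own start sites. Whole embryos of all these ages hold many cell types, so a weak region and a strong region present in few cells cannot be told apart.

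The data were lists of enriched regions on the dm6 genome, each with a summit, its point of highest signal, and a signal value set by the authors. The optimal list, which the authors cut by a threshold on reproducibility, had 5202 regions with a median width of 430 bp. Not all of these were among the strongest regions of every replicate. The relaxed list of the pooled replicates had 30000 regions, weak ones included. The relaxed lists of replicates 1, 2 and 3 had 30000, 29643 and 30000 regions. Ranks count from 1, the strongest signal of a list, and an optimal region is given its rank in the pooled signal followed by the rank of the best region that overlaps it in each replicate. A region was called supported by a replicate where it overlapped one of that replicate's 5202 strongest regions. A promoter was the sequence within 500 bp of an annotated start of a protein-coding gene.

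Sequences of 100 bp either side of a summit are shown for the strongest ush summit, which outranked every other region at these genes by far. They are also shown for the strongest summits of sog, brk and dpp, which lay in introns or upstream sequence. Enhancers of these genes are known in such sequence, but whether these summits fall in known enhancers was not examined. The strongest summits of tkv, zen and twi, all at promoters of other genes, and the weak rho summit are not shown. The sequences were read from the RefSeq copy of the Release 6 genome (dm6) and run 5' to 3'. Capitals mark matches, on either strand, to any of the 10 short motifs listed further on.
ush, intron, chr2L:480955-481155, + strand: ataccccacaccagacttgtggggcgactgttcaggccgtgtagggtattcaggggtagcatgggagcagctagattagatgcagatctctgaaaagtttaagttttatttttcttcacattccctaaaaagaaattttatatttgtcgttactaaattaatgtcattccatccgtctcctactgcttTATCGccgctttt
sog, intron, chrX:15619425-15619625, + strand: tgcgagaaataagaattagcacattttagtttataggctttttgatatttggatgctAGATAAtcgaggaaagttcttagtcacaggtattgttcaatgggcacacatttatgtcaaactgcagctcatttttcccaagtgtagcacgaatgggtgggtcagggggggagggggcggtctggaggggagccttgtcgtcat
brk, upstream, chrX:7307076-7307276, + strand: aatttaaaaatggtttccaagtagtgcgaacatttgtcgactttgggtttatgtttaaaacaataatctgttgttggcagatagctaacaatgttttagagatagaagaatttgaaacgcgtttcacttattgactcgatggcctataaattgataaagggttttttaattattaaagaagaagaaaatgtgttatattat
dpp, intron, chr2L:2433563-2433763, + strand: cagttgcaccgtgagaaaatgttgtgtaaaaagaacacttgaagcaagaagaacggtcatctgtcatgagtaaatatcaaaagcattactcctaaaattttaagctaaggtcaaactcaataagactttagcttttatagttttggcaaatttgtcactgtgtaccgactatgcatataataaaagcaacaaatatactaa
The ush sequence held 1 match to the BEAF-32 motif (CGATA, read here as TATCG on the other strand), and the sog sequence held 1 match to the GATA factor motif (AGATAA). The brk and dpp sequences held none of the 10 motifs. GC content was 40.8% in the ush window, 44.8% in the sog window, 28.9% in the brk window and 32.3% in the dpp window.

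None of the 10 genes had an optimal summit at its own promoter, whereas 26.2% of all protein-coding genes did. With 10 genes, a count of 0 allows a share of up to 30% (3 genes of 10), and the 95% Wilson interval reaches 27.8%, so the difference from the background was not detectable with so few genes. The interval covers counting error only. In the gene or within 10 kb of it, 8 of the 10 genes had an optimal summit, against 67.4% of all protein-coding genes, and the exceptions were sna and tld. A weaker, pooled relaxed summit lay at the promoter of 7 of the 10 genes, against 54.2% of all protein-coding genes. Within a wider window of 1000 bp, rho, brk and ush had an optimal summit, 3 of the 10 genes, against 29.2% of all protein-coding genes. When each replicate's 5202 strongest regions were used alone, 2 of the 10 genes in replicate 1 (ush and tkv), 0 in replicate 2 and 1 in replicate 3 (ush) had a promoter summit, against 26.5%, 25.1% and 25.4% of all genes.

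The 10 genes with their flanks held 35 optimal summits over 456389 bp, a density of 7.67 per 100 kb, against 4.30 per 100 kb over the same spans of all protein-coding genes. The ush span alone held 17 of them. Without ush, 18 summits remained at a density of 4.84 per 100 kb, so most of the excess over the background came from that gene. The choice of the 10 genes named the strong intronic ush peak, known from earlier results of these data. The difference in density was not tested. Across single replicates the 10 genes held 34.7 ± 1.53 summits (SD, n = 3). Their median length was 17643 bp, against 2166 bp for all genes, and a longer gene has a longer span in which a summit can fall. Their median distance from an own start to the nearest optimal summit was 2593 bp, against 5336 bp for all genes. The start closest to a summit was used for each gene. The 10 genes have 1 to 4 annotated starts each, against 19607 starts over all 13945 genes, and the distance was not adjusted for this.

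Of the 35 summits, 24 lay in introns outside promoters (68.6%, 95% Wilson interval 52.0 to 81.4%), against 29.4% of all 5202 optimal summits. Promoters took 8 (22.9%, interval 12.1 to 39.0%), always of a neighbouring or nested gene and never of the named gene, against 56.4% of all optimal summits. The remaining 3 were 2 intergenic summits and 1 in a 5' UTR of ush. In 18 of the 24 intronic cases the intron belonged to the named gene, and in 6 it belonged to another gene, CG1677 around brk or CG4297 beside ush. Without ush the intronic share was 61.1% (11 of 18) and the promoter share 27.8% (5 of 18). These shares compare summits chosen by their nearness to long genes with all summits, and were not tested. The intervals treat summits as independent, but 17 of the 35 came from ush and 4 lay in introns of CG1677 around brk. They may therefore be too narrow and do not serve as a test against the shares of all optimal summits. In addition, ush was chosen with its strong intronic peak known, which favours the intronic share.

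All 3 replicates supported 24 of the 35 summits (68.6%), 2 replicates supported 10, and no replicate supported 1, the rho summit. The share supported by all 3 was 73.2% for all optimal summits and 69.6% for the 2270 that lie outside promoters, both close to the share at the 10 genes. The pooled ranks of the 35 had a median of 2545 of 5202, with 8, 11, 11 and 5 summits in 4 equal parts of the list from strongest to weakest.

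**Figure D1:**
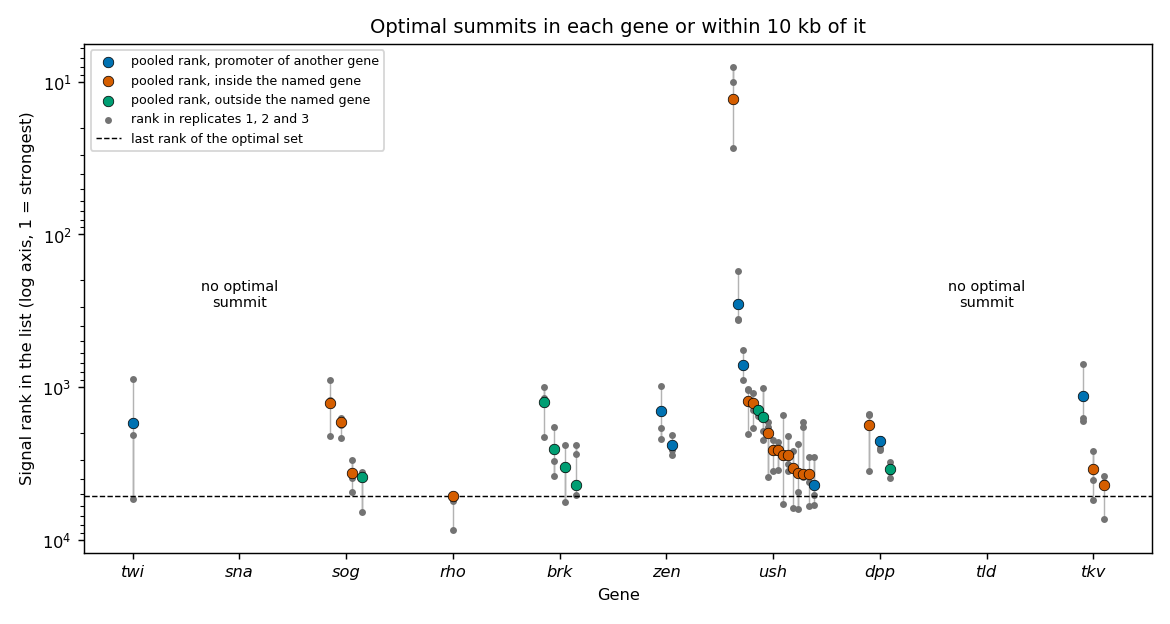
Pooled signal rank of each optimal summit in or within 10 kb of the 10 genes (large points, coloured by place) with its ranks in replicates 1, 2 and 3 (small grey points), on a log axis with the strongest at the top. The strongest ush summit, at rank 13, stands apart from the other 34, sna and tld have none, and the rho summit at 5181 lies just above the last optimal rank.

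Ranked by its strongest optimal summit, ush came first at 13, followed by tkv at 1139, brk at 1246, sog at 1274, zen at 1426, twi at 1712, dpp at 1777 and rho at 5181. The replicate ranks of these summits ran from 8 to 27 for ush and from 5433 to 8611 for rho. Those of the 6 genes in between overlapped one another, from 708 to 1658 for tkv at the top to 1512 to 3547 for dpp at the bottom. The order among these 6 is therefore not resolved by the replicates.

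Of the ventral genes, twi had 1 optimal summit and sna had none. The gene twi (FBgn0003900, arm 2R, 22985374 to 23048325, plus strand), which encodes a basic helix-loop-helix activator of the mesoderm, had 1 optimal summit, in the region 22998704 to 22999133 at pooled rank 1712. Its ranks in replicates 1, 2 and 3 were 889, 5430 and 2055. Replicates 1 and 3 placed it among their strongest regions and replicate 2 did not. The summit lay in the long second intron that the annotation gives twi, 13545 bp after its first annotated start, and at -35 bp from the start of CG9896, a gene nested there (negative distances are upstream). The other 2 annotated starts of twi lie far downstream, and the summit was at -47189 bp from the nearer of them. The window of 100 bp either side of it had a GC content of 62.7%, the highest of the 35. At the promoter of twi no pooled relaxed summit was found, and only replicates 2 and 3 listed one, at ranks 14860 and 16429.

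The gene sna (FBgn0003448, arm 2L, 15476593 to 15478260, minus strand), which encodes the zinc-finger repressor Snail, had no optimal summit within 10 kb. The nearest lay 20757 bp away, at rank 2190. Its strongest pooled relaxed region, 15486375 to 15486804, was at -8330 bp from the start, at rank 8036, with ranks of 7238, 12367 and 9053 in replicates 1, 2 and 3, so no replicate placed it among its strongest. At the sna promoter a relaxed summit lay 25 bp inside the gene at pooled rank 14316. Replicates 1 and 3 ranked it 28571 and 10942, and replicate 2 had no summit there.

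The 3 genes of the neurogenic ectoderm had summits in introns and upstream sequence. The gene sog (FBgn0003463, arm X, 15603283 to 15633434, minus strand) encodes Short gastrulation, a secreted antagonist that binds Dpp. It had 4 optimal summits, 3 of them in its own introns. The strongest, in 15619418 to 15619590, was 7015 bp after the second annotated start and ranked 1274, with replicate ranks of 2108, 1222 and 900. The next, in 15622990 to 15623108, was 3453 bp after that start and ranked 1703, with replicate ranks of 2143, 1784 and 1596. Both were among the strongest regions of every replicate. The third intronic summit, 10936 bp after the start, was weaker, at rank 3638 with replicate ranks of 3933, 3000 and 4850. The fourth lay 3425 bp beyond the 3' end of the gene in intergenic sequence, at rank 3918 with replicate ranks of 3601, 6603 and 3738, and replicate 2 did not support it. At the sog promoter the best pooled relaxed summit ranked 10141, 12 bp after the start, and the replicates ranked their best there 8552, 8299 and 22881.

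The gene rho (FBgn0004635, arm 3L, 1463811 to 1468944, plus strand) encodes Rhomboid, the membrane protease that releases ligands of the EGF receptor. Its 1 optimal summit, in 1464447 to 1464876, lay in the first intron 851 bp after the start, at rank 5181 of 5202. Replicates 1, 2 and 3 ranked it 5623, 5433 and 8611, all outside their 5202 strongest regions. Only 19 of the 5202 optimal summits had no supporting replicate. All of rho lies inside an intron of Ptp61F, so the summit is intronic to both genes. At the rho promoter the pooled relaxed summit ranked 13805, and the replicates disagreed: replicate 1 had none, replicate 2 ranked it 21023 and replicate 3 ranked it 5288.

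The gene brk (FBgn0024250, arm X, 7307939 to 7311132, plus strand) encodes Brinker, the repressor of Dpp target genes, and sits inside an intron of CG1677, a gene of 124709 bp. It had 4 optimal summits, all outside brk and all in introns of CG1677. The strongest, in 7307077 to 7307330, was at -763 bp from the brk start and ranked 1246, with replicate ranks of 1177, 1001 and 2119, high in each. A second upstream summit at -1963 bp ranked 3363, with replicate ranks of 3450, 5651 and 2409, and replicate 2 did not support it. The farthest upstream, at -8282 bp, ranked 4407, with replicate ranks of 2760, 2389 and 5141. On the other side, 8123 bp beyond the 3' end and also within Atg5, a summit ranked 2545 with replicate ranks of 1839, 3823 and 3044. With 20 pooled relaxed regions in 23194 bp, brk had the densest relaxed signal of the 10 genes, at 86.2 per 100 kb against 24.3 over all gene spans. CG1677 itself was 1 of only 4 genes with 17 or more optimal summits in the gene or within 10 kb, and its 17 include the 4 described here. Which of the genes these 4 summits belong to cannot be told from peak positions. At the brk promoter the pooled relaxed summit ranked 12231. Replicates 1 and 3 ranked theirs 7580 and 10806, and replicate 2 had none.

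**Figure D2:**
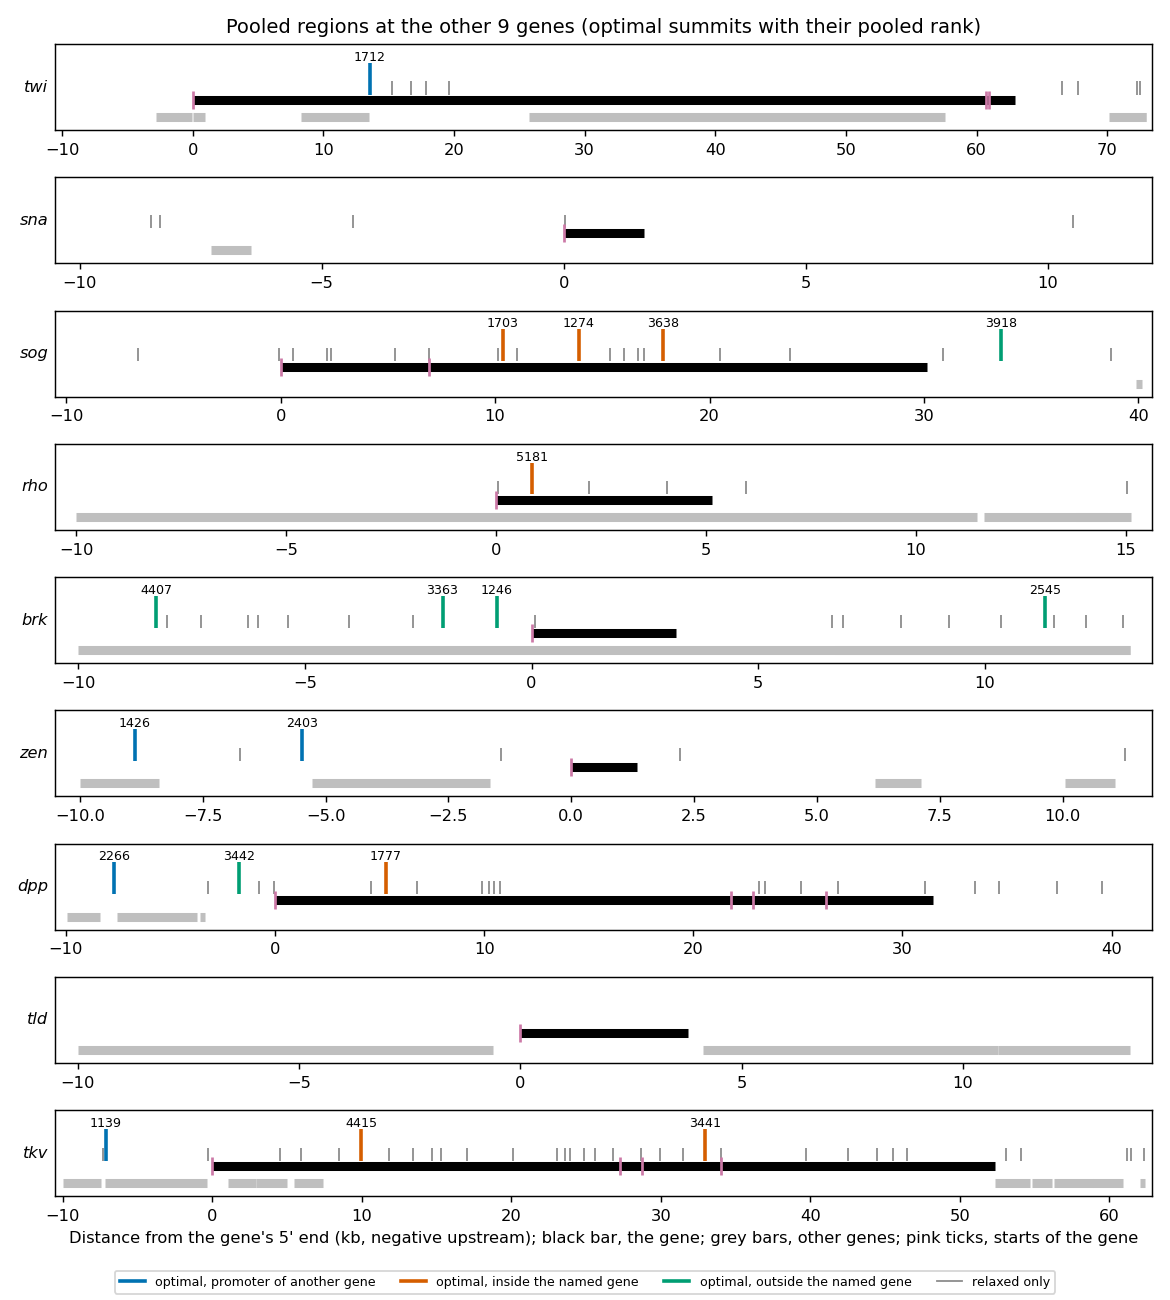
Pooled regions around the 9 genes other than ush, by distance in kb from the 5' end of each gene (negative upstream). Tall coloured ticks are optimal summits with their pooled rank, short grey ticks are relaxed summits outside the optimal list, the black bar is the gene with its starts in pink, and grey bars are other genes. Of the 4 sog summits, 3 sit in its introns, both zen summits are at promoters of other genes, and tld has no tick of either kind.

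The dorsal genes zen and ush had 2 and 17 optimal summits. The gene zen (FBgn0004053, arm 3R, 6752864 to 6754194, minus strand) encodes a homeodomain factor of the dorsal ectoderm and amnioserosa, and both of its summits were at promoters of other genes. The summit in 6762869 to 6763298 was at -8890 bp from the zen start and -320 bp from that of Ama, which encodes a secreted immunoglobulin protein. It ranked 1426, with replicate ranks of 981, 2198 and 1864. The summit in 6759460 to 6759889 was at -5481 bp from zen and -209 bp from bcd, the anterior determinant Bicoid, and ranked 2403, with replicate ranks of 2807, 2573 and 2063. All 3 replicates supported both. Neither the pooled nor any replicate list had a summit at the zen promoter, and the relaxed summit nearest to its start was at -1434 bp with a pooled rank of 21184.

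The gene ush (FBgn0003963, arm 2L, 476220 to 540560, plus strand) encodes U-shaped, a zinc-finger partner of the GATA factor Pannier. It held 17 optimal summits, 13 of them inside the gene, and 51 pooled relaxed regions, a number close to the 57, 50 and 51 of replicates 1, 2 and 3. Only 4 protein-coding genes had as many optimal summits in the gene or within 10 kb: Tlk with 21, and CG1677, kirre and ush with 17 each. These 4 genes are 69764, 124709, 394149 and 64341 bp long. Per 100 kb, ush had 20.2 optimal summits, against 17.2 at brk, 9.38 at zen, 7.98 at sog, 5.83 at dpp, 4.14 at tkv, 3.98 at rho and 1.21 at twi.

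The strongest ush summit lay in the region 480845 to 481333 of the first intron, 4835 bp after the first annotated start and at -9780 bp from the second. It ranked 13 of 5202, with ranks of 27, 8 and 10 in replicates 1, 2 and 3. The authors' signal there was 3222, against 714 at the next strongest ush summit and a median of 199 over the optimal list. Among the 2270 optimal summits outside promoters it was second, behind a summit in an intron of Kr-h1 at rank 7 with replicate ranks of 7, 10 and 5, and it was also second of the 1530 intronic summits. The intronic summits next below it were in CG11050 at rank 20 with replicate ranks of 30, 18 and 14, in mld at rank 22 with 19, 35 and 29, and in Tlk at rank 27 with 33, 21 and 33. Replicate 1 ranked the ush summit close to these, whereas replicates 2 and 3 ranked it above all 3.

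The start nearest to this summit was not one of ush but that of cbt, which encodes the zinc-finger protein Cabut and is nested in ush on the opposite strand, with the summit at -1367 bp from it. The summit ranked 284 in the region 479903 to 480233, with replicate ranks of 361, 358 and 174, was within the cbt promoter at -417 bp. On the other side, 929 bp from the strongest one, was the summit in 481890 to 482080 at rank 1233, with replicate ranks of 2021, 1025 and 1046. All 3 replicates supported each of these, so the strongest signal at ush was a cluster of 3 summits upstream of cbt and inside the first intron of ush. Which of the 2 genes the cluster belongs to cannot be told from peak positions.

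The other ush summits were weaker and spread over the gene and its upstream flank. Upstream, 4 summits were near or inside CG4297: at its promoter at -284 bp (rank 722, replicate ranks 893, 714 and 576) and 135 bp (rank 4417, replicate ranks 5950, 2884 and 5111), and in its introns at ranks 1409 and 1567. Before the second ush start, the summits ranked 1990 and 3734 lay in overlapping regions. The replicate regions with the nearest summit ranked 1685, 3914 and 1835 for the first and 3633, 7140 and 2975 for the other, and the stronger of each pair overlapped both. Next came a summit ranked 3375, and the summit nearest to any ush start was at -626 bp from the second one, in a 5' UTR, at rank 2800 with replicate ranks of 3184, 2099 and 3529. Just after that start were summits ranked 3735 and 3686. A last group lay before the 2 start sites farthest downstream, and its strongest was at -2630 bp with rank 1264 and replicate ranks of 1097, 1406 and 1869. The others of this group ranked 2583, 2602 and 2773, with the one at rank 2773 at -1356 bp. In all, 12 of the 17 were supported by all 3 replicates and 5 by 2 replicates. The 12 include the summit ranked 3734, which replicate 2 supported through the region at rank 3914 that also overlapped its neighbour.

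At the ush promoters themselves the best pooled relaxed summit ranked 5959, just outside the optimal list, at -18 bp from the most downstream start. Replicates 1, 2 and 3 ranked their best ush promoter summit 4168, 8137 and 4193. Replicates 1 and 3 thus had ush promoter signal among their strongest regions, at different starts (-89 bp from the most downstream start in replicate 1 and -16 bp from the second start in replicate 3).

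**Figure D3:**
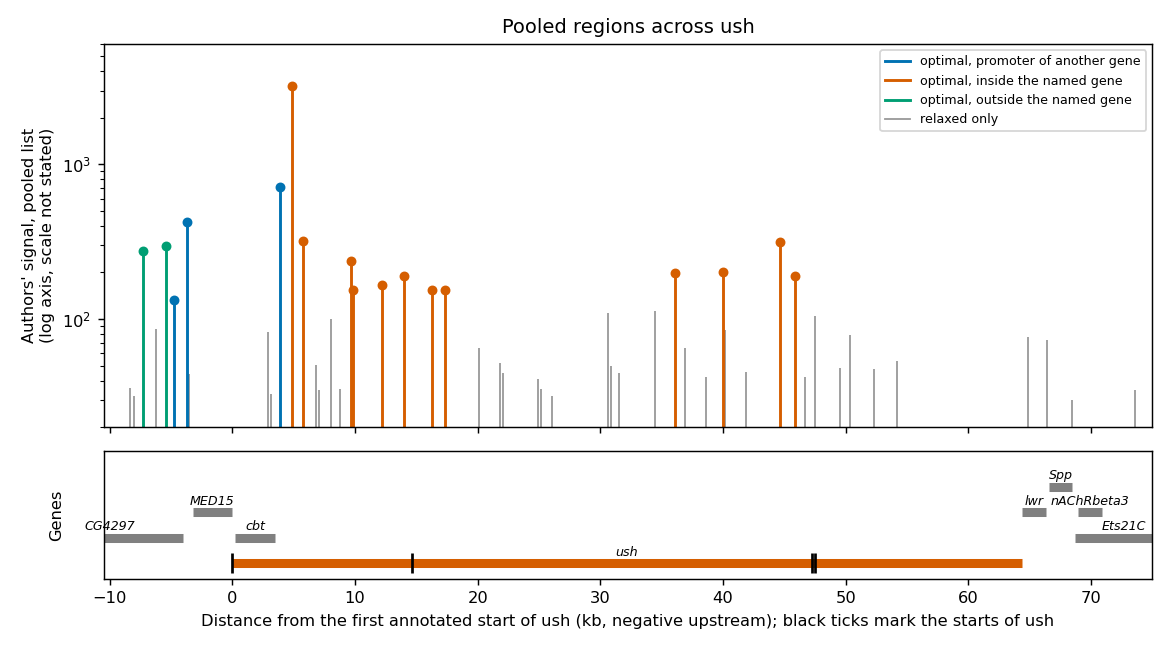
Authors' signal in the pooled list (log axis, scale not stated) of each region across ush and 10 kb on either side, by distance in kb from the first annotated ush start, with optimal summits coloured by place, relaxed regions in grey, and genes below. The signal of 3222 in the first intron, near the nested gene cbt, stands above all others, of which the next is 714.

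The 3 genes of the Dpp pathway itself differed from one another. The gene dpp (FBgn0000490, arm 2L, 2428372 to 2459823, plus strand), which encodes the BMP ligand, had 3 optimal summits, each supported by all 3 replicates. The strongest, in 2433448 to 2433877, lay in the first intron 5291 bp after the first start and ranked 1777, with replicate ranks of 1531, 3547 and 1512. A summit in intergenic sequence at -1733 bp ranked 3442, with replicate ranks of 3627, 3086 and 3937. The third, at -7701 bp, was at the promoter of CG9886 (-159 bp from its start) and ranked 2266, with replicate ranks of 2524, 2588 and 2185. No optimal summit lay in the 10 kb read beyond the 3' end of dpp. The strongest pooled relaxed region there ranked 9105 with replicate ranks of 10010, 9652 and 19331. Wing disc enhancers of dpp are known on that side, but these were whole embryos, so the absence says nothing about wing discs. At the dpp promoter the best pooled relaxed summit ranked 14156, and the replicates ranked theirs 15167, 27801 and 15120, all weak.

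The gene tld (FBgn0003719, arm 3R, 24749731 to 24753510, plus strand) encodes Tolloid, the metalloprotease that cleaves Sog and frees Dpp. It had no region of any kind within 10 kb, in the optimal list, the pooled relaxed list or any of the 3 replicate lists. Its nearest optimal summit was 15516 bp away, at -325 bp from the start of CG13631, and ranked 954.

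The gene tkv (FBgn0003716, arm 2L, 5219000 to 5271384, minus strand) encodes Thickveins, a type I receptor for Dpp. It had 3 optimal summits. The strongest, in 5278379 to 5278689, was at -7144 bp from the tkv start, at the shared promoter of Nin (20 bp from its start) and Bub1, and ranked 1139, with replicate ranks of 708, 1593 and 1658. The others were in tkv introns. One at -1042 bp from the most downstream start ranked 3441, with replicate ranks of 5541, 2643 and 4053, and one 9969 bp after the first start ranked 4415, with replicate ranks of 7303, 4199 and 3805. Replicate 1 supported neither of these. At the tkv promoters the best pooled relaxed summit ranked 5982, and the replicates ranked theirs 4210, 8310 and 9457, so replicate 1 alone had it among its strongest.

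Close to the limit of 10 kb, the summits farthest from their gene on the inside were at 8890 bp (zen), 8282 bp and 8123 bp (both brk). The nearest on the outside were at 10553 bp from rho, ranked 3795, and at 13620 and 13847 bp from brk, ranked 2366 and 608. The strongest of these, at rank 608, was 765 bp after the start of Dok.

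**Figure D4:**
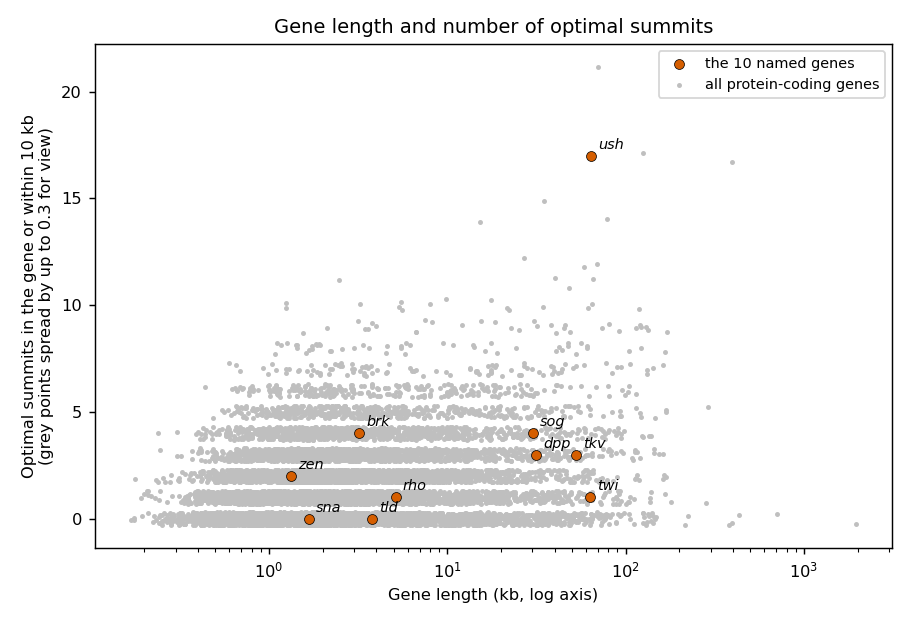
Number of optimal summits in each gene or within 10 kb against gene length in kb (log axis) for the 10 genes (orange, labelled) and all protein-coding genes (grey, spread vertically by up to 0.3 for view). Among the longer of the 10 genes, ush has 17 summits and twi, of similar length from its first annotated start, has 1. The other starts of twi lie far downstream, and its summit is far from them.

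The 10 motifs were searched on both strands within 100 bp of each of the 35 summits, and are shown beside the share of all 5202 optimal summits and of the 2270 outside promoters whose windows of the same length hold them. The BEAF-32 motif CGATA was at 7 of the 35 summits (20%), against 33.6% of all summits and 20.9% of those outside promoters. Within 50 bp of the summit it was at 1 (2.86%), against 19.9% and 10.7%. The GAGA factor motif GAGAG was at 6 (17.1%), against 23.1% and 25.5%, and within 150 bp at 12 (34.3%), against 34.5% and 38.9%. The GATA factor motif AGATAA was at 5 (14.3%), against 13.1% and 14.7%. It was at 3 (8.57%) within 50 bp, against 7.21% and 8.28%, and at 11 (31.4%) within 150 bp, against 18.5% and 20.4%. A loose Dorsal motif, GGGNNNNCC, was at 4 (11.4%), against 8.36% and 7.14%. The Snail E-box CAGGTG was at 3 (8.57%), against 5.40% and 5.29%, and all 3 were at ush summits. It was at 1 within 50 bp (2.86%, against 2.86% and 2.82%). The Brinker motif GGCGCC was at 2 (5.71%), against 3.50% and 3.39%. The Twist E-box CATATG was at 1 (2.86%), the ush summit ranked 2773, against 6.71% and 8.02%, and within 150 bp at 2 (5.71%), against 9.55% and 11.4%.

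The motifs of Zelda (CAGGTAG), DREF (TATCGATA, which contains CGATA) and M1BP (GGTCACAC) were at 0 of the 35 summits, which allows a share of up to 8.57% (3 of 35). Over all optimal summits they were at 0.846%, 5.25% and 3.44%, and outside promoters at 1.37%, 0.705% and 0.396%. None of the motif shares was tested against the background, and 35 summits are few. A match describes letters in a window and not a binding site. Median GC content was 36.3% at the 35 summits, against 35.3% at all optimal summits and 34.8% at those outside promoters.

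Further genes of the same axis and pathway were read by list, chosen for their roles. Of 59 such genes, 14 had an optimal promoter summit (23.7%), close to the background of 26.2%. In the maternal Toll and Dorsal pathway it was 5 of 14, with 5, 5 and 6 in replicates 1, 2 and 3. The strongest was cact, which encodes the inhibitor that holds Dorsal in the cytoplasm, at -176 bp from its start, with rank 260 and replicate ranks of 290, 240 and 263. The kinase gene pll ranked 866 (replicate ranks 985, 800 and 990), the adaptor gene Myd88 ranked 890 (472, 1275 and 1446) and Spn27A, a serpin that restrains the protease cascade, ranked 3087 (3698, 2394 and 3295). The pll summit was also within the promoter of TfIIA-L, and that of Spn27A within the promoter of CG34310.

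Of 7 other genes of the ventral mesoderm, 3 had a promoter summit, each supported by all 3 replicates. They were tin, a homeobox gene of the dorsal mesoderm, at rank 822 (replicate ranks 576, 1800 and 728), htl, an FGF receptor gene, at rank 1667 (1729, 1455 and 2064), and stumps, which encodes an adaptor of FGF receptors, at rank 1865 (1402, 2738 and 1961). Of 9 genes of the neurogenic ectoderm, vnd, ind and sim among them, 0 had one in the optimal list or in any replicate, which allows a share of up to 33.3% (3 of 9). Of 10 further genes of the dorsal ectoderm, 2 had one, the GATA factor gene srp at rank 2664 (1552, 4846 and 3703) and the peptidase gene Ance at rank 3772 (7447, 2852 and 2909).

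Of 19 other BMP pathway genes, 4 had a promoter summit: the glypican gene dlp at rank 1061 (replicate ranks 1021, 1180 and 1223), lolal at rank 1283 (829, 1377 and 2067), the BMP-binding factor gene cv at rank 4255 (5526, 3644 and 4238) and shn, which encodes the zinc-finger partner of the Smad proteins, at rank 5140 (12317, 2486 and 4498). The first 3 of these summits also lay within promoters of RecQ5, CG10914 and PGAP1. Replicates 1, 2 and 3 had 4, 5 and 6 genes of this list.

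Of 35 patterning genes of the other body axis, 3 had an optimal promoter summit (8.57%). They were oc among 11 gap genes (rank 1757), hry among 9 pair-rule genes (rank 4058, supported by 1 replicate) and nkd, a Wnt antagonist gene, among 15 segment polarity genes (rank 587, with replicate ranks of 629, 604 and 532). When each replicate's strongest regions were used by themselves, the counts of the 35 genes were 5, 3 and 3 in replicates 1, 2 and 3. No list was tested against another. The lists differ in gene length, with medians of 17643 bp for the 10 genes, 3846 bp for the Toll and Dorsal list, 16031 bp for the neurogenic ectoderm list and 3373 bp for the gap genes.

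**Figure D5:**
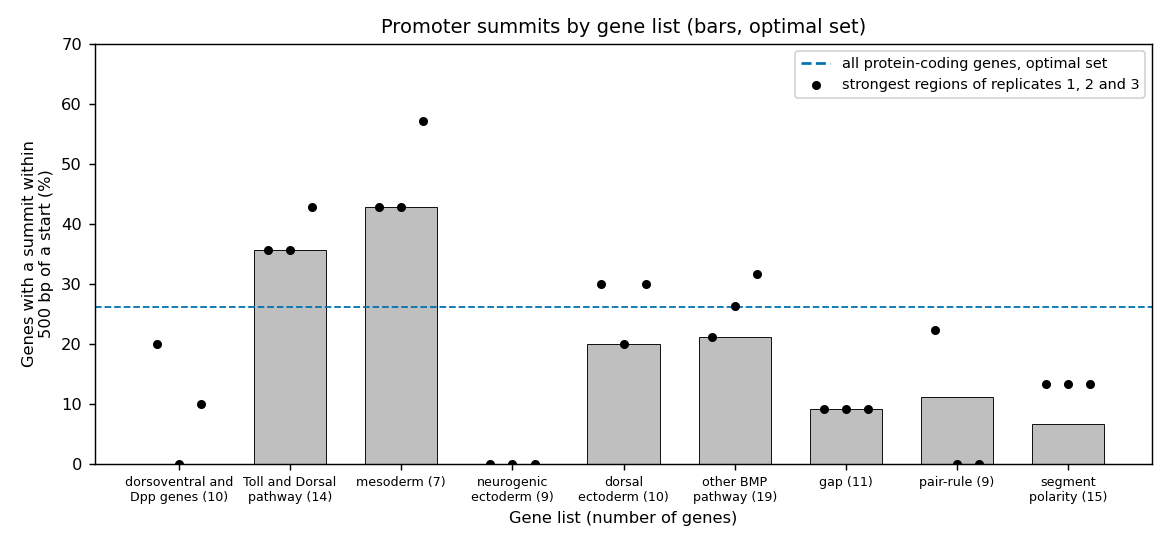
Share of genes, in percent, with an optimal summit within 500 bp of a start (bars), by gene list, with the same from the 5202 strongest regions of replicates 1, 2 and 3 (points, left to right) and the share of all protein-coding genes, 26.2% (dashed line). The bars of the 10 genes and of the neurogenic ectoderm list are at 0, and the mesoderm list has the tallest bar.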

How the data were processed

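ChIP-seq of GFP-tagged CG12155 was done in 3 biological replicates of embryos aged 0 to 24 hours, with sonication to fragments of 200 to 800 bp, per the labels. The deposited lists hold a signal score per region and a −log10 q-value, set by the authors, as their deposited notes state. The scale of the score is not stated, so it was used to rank regions within a list. The 5 dm6 lists were used, and the dm3 lists were not used. The aligner, peak caller and settings were not given in the sources used here. The files hold no read counts, so depth is unknown, and no control was analysed.

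Gene models were those of Ensembl release 115, and bases were read from RefSeq's Release 6 assembly. Each summit was placed by promoter (500 bp), then exon, then intron of a protein-coding gene, with Python 3.11.15 and pandas 2.3.3. Placement was tested on simulated data. Of 104 listed symbols, 2 were matched through an older name. The 10 genes, the lists and the motifs were chosen with earlier results of these data known. Named genes are the 10 genes, up to 4 genes with the strongest promoter summit in each list, and the intronic summits next in rank to that of ush, up to 3 on either side. Regions and genes are not replicates, so no test was run and counts are descriptions. Alternatives were promoter and motif windows, gene starts, distances, stricter peak sets, single replicates and leaving each replicate out of the support rule.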

Additional observations from a re-analysis of the deposited data

How the results depend on the processing

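Under most alternatives the counts changed little: 67 main values stayed and 18 moved. Counts were judged by a factor of 1.5, and densities and the ush rank by the spread over the replicates. A promoter window of 1000 bp gave 3 of the 10 genes with a promoter summit (rho, brk and ush), against 29.2% of all protein-coding genes, and single replicates 1 and 3 gave 2 and 1. Among the other pathway genes, a window of 200 bp gave 9 and the strongest 50% of optimal regions gave 8. Replicate 1 alone gave 5 for the genes of the other axis. The number of summits at the 10 genes was 21 inside the genes only and 19 for the strongest 50%. Their density per 100 kb was 8.19 inside the genes only (3.16 over all genes), 7.01 within 20 kb (4.15), 4.16 for the strongest 50% (2.16), 5.26 for summits supported by all 3 replicates (3.15), 7.23 in replicate 1 alone (4.30) and 4.84 with ush left out. Leaving 1 replicate at a time out of the support rule, and keeping optimal summits supported by both others, gave 5.70 to 6.14. Over all genes the same gave 3.42 to 3.43. The optimal summits themselves still came from all 3 replicates pooled. The strongest ush summit ranked 27 in replicate 1. Motif counts at 50 or 150 bp either side of a summit moved by over 1.5 times for 5 of the 10 motifs (BEAF-32, GAGA factor, GATA factor, Snail and Twist). Taking twi and ush from their later starts only gave 7 of the 10 genes with a summit, 29 summits and 7.61 per 100 kb. That alternative, like the one without ush, was chosen after seeing the data. Ranking the optimal list by q was not possible, since its q column has 1 value throughout, and no p-value was used. No paired analysis was possible because there is only 1 group. Depth is unknown, and 10 genes or 35 summits limit every share.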
